A study of Mus musculus with 8 samples.

Results

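Intragenic acetylated regions away from gene ends are stretches of chromatin inside gene bodies that carried acetylated histone H4 at a distance from every annotated gene start and end. They were built from 8 lists of acetyl-H4 ChIP-seq peaks of C57BL/6 mouse bone marrow derived macrophages. Overlapping peaks of all 8 libraries on chromosomes 1 to 19 were merged into 81378 union regions. A region was taken when it lay wholly inside a protein-coding gene body of GRCm38, more than 1 kb from the start or end coordinate of any protein-coding gene, and held peaks of 2 or more libraries. This gave 29716 regions of the 63103 that held peaks of 2 or more libraries. Another 13211 of the 63103 lay within 1 kb of a gene end or crossed one, and 20176 touched no protein-coding gene. No measured difference between groups entered the choice.

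Acetylation of the tail of histone H4 loosens the contact between nucleosomes and DNA and is read by bromodomain proteins. It marks active promoters and active enhancers. Many enhancers of macrophages lie inside genes, in the gene they act on or in a neighbour, and other intragenic acetylated regions sit at alternative starts of the gene itself.

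The groups were macrophages given PAM3 (PAM3CSK4, a synthetic lipopeptide that activates TLR2 with TLR1), macrophages given 25HC (25-hydroxycholesterol, an oxysterol) and then PAM3, macrophages given 25HC with no stimulus, and untreated macrophages. All were C57BL/6 cells, and each group had 2 libraries, 1 of cells from mouse A and 1 of cells from mouse B. The labels give the stimulation time as 18 in the libraries with PAM3 and as 0 in those without, with no unit, so PAM3 and that time cannot be told apart. With 2 mice, p-values measure the spread between these libraries. The files give peak positions and no read counts, so the depth of each library is unknown. They held 47286 to 53181 peaks each. Bulk chromatin was immunoprecipitated, so more cells with the mark and more of the mark per cell cannot be told apart.

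All 10 of the macrophage genes looked up, among them Csf1r, Spi1, Itgam and Mertk, carried a peak over the gene body in all 8 libraries. Of 7 lymphocyte genes, 5 carried none in any library, among them Cd3e and Pax5, and of 8 neutrophil genes 5 carried none, among them Mpo and Elane. Of 6 fibroblast genes, 4 carried none, among them Col1a2 and Col3a1. Of the lymphocyte genes 1, and of the neutrophil genes 2, carried a peak in all 8 libraries. Neutrophil genes with a peak numbered 3 in each library with PAM3 and 2 in each without. Fibroblast genes with a peak numbered 1 to 2 with PAM3 and 0 to 1 without.

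A small set of the regions holds a RefSeq start of the host gene itself, and for these the RefSeq tables give 300 bases around the start (GRCm38.p6, 250 before and 50 after). Of the 29716 regions, 1074 were found to hold such an internal start. Starts of host genes missing from these tables could not be found. The 6 sequences below are shown because the called length of the regions around them differed between groups. They run 5′ to 3′ on the strand of the gene, and capitals mark the letters of the motifs searched on both strands.

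Slc7a11, chr3:50443564-50443863, minus strand: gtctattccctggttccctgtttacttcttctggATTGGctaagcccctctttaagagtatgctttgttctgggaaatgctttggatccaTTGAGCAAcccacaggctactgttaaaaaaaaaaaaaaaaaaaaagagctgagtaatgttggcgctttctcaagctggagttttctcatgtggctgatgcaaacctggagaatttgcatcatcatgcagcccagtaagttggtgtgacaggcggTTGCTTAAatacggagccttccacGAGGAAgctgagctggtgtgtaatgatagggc
Hsd11b1, chr1:193242311-193242610, minus strand: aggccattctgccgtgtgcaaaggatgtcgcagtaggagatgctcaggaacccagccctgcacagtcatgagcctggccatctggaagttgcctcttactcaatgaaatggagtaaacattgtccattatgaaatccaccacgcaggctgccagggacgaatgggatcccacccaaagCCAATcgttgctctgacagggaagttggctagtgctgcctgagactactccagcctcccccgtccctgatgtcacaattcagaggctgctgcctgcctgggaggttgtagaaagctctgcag
Slco2b1, chr7:99706793-99707092, minus strand: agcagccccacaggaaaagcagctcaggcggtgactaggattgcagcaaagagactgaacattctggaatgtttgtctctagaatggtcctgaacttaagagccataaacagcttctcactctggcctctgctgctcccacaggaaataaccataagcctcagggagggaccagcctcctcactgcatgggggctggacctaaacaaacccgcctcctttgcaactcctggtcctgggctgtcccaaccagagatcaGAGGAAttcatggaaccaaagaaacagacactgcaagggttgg
Nfyc, chr4:120815664-120815963, minus strand: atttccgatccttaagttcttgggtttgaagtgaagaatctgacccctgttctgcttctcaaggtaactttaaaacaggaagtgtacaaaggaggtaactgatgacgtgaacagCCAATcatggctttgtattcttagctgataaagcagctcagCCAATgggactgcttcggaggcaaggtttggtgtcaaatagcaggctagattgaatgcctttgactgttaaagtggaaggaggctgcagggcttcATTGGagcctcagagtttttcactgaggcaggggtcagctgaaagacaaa
Zfp790, chr7:29815822-29816121, plus strand: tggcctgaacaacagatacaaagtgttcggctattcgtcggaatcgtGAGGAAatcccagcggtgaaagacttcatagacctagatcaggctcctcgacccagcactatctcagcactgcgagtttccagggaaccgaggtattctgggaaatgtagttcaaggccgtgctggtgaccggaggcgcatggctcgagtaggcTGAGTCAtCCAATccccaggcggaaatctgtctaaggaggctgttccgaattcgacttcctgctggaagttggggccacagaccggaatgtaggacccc
Elf2, chr3:51277465-51277764, minus strand: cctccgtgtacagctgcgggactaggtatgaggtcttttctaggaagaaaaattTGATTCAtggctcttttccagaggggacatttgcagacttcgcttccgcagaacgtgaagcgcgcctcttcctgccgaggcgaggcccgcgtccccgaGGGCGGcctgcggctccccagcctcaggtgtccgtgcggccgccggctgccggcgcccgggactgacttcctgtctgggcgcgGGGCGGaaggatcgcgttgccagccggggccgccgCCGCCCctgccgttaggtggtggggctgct

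The letters searched were TGANTCA for AP-1, GAGGAA for the core that PU.1 and other ETS factors bind, TTGCNNAA for C/EBP, CCAAT for the CCAAT box, GGGCGG for the GC box and TATAAA for the TATA box, besides an NF-κB motif. Those of AP-1, C/EBP and the boxes can in principle share bases, but no 2 matches in these 6 sequences overlapped. The Slc7a11 sequence holds 2 C/EBP matches, 1 ETS match and 1 CCAAT, and the Nfyc sequence holds 3 CCAAT matches. Elf2 holds 3 GC boxes and 1 AP-1 match, and Zfp790 holds 1 match each of AP-1, ETS and CCAAT. A match is a description of the letters and not a site.

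Slc7a11 encodes the cystine transporter subunit xCT. Its start region, 55.1 kb from the 5′ end of the gene, was called over 1244 and 1309 bp in PAM3 and 3116 and 2940 bp in 25HC then PAM3, against 0 and 0 bp in 25HC and 0 and 811 bp in untreated. The libraries with PAM3 all lay above those without. Hsd11b1, the enzyme that regenerates active glucocorticoid, was called over 1927 and 2024 bp in PAM3 and 1778 and 1912 bp in 25HC then PAM3, against 0 and 0 bp in 25HC and 0 and 206 bp in untreated. The 2 groups of 4 libraries did not overlap. Nfyc, a subunit of the CCAAT-binding factor NF-Y, was called over 471 and 1743 bp in PAM3 and 286 and 0 bp in 25HC then PAM3, against 2978 and 2070 bp in 25HC and 3055 and 2934 bp in untreated. Slco2b1, an organic anion transporter, was called over 887 and 0 bp in PAM3 and 261 and 0 bp in 25HC then PAM3, against 2826 and 3736 bp in 25HC and 3757 and 4604 bp in untreated. At both genes every library without PAM3 lay above every library with it.

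The union regions were 217 to 14407 bp long, with a median of 1515 bp, and 1030 of them reached 4 kb or more. They lay in 8064 of the 20665 protein-coding genes of these chromosomes. A single region was held by 3142 of the genes (39.0%), while 661 genes held 10 or more and together carried 10866. All but 270 lay in only 1 gene. For the 80.6% whose host gene has a strand in the tables, the median distance from the 5′ end of the gene was 35.7 kb. Of these, 4.71% lay within 5 kb and 16.1% within 10 kb of the 5′ end, and 52.2% lay nearer to the 5′ end of the gene than to its 3′ end.

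The genes with the most regions were Lpp with 75, Foxp1 with 61, Elmo1 and Hdac9 with 49 each, and Snx29 with 48. These genes span 436 to 870 kb. Lpp encodes a focal adhesion protein and is the host of a microRNA, Foxp1 is a forkhead factor of monocytes and lymphocytes, Elmo1 acts in engulfment, and Hdac9 is a histone deacetylase.

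Fewer of these regions than of those at gene ends were present in every library. Peaks of all 8 libraries were found in 8608 of the 29716 (29.0%), against 8851 of the 13211 regions near gene ends (67.0%) and 38.2% of all regions. The share with a peak was 64.4% and 73.4% in PAM3, 64.7% and 69.5% in 25HC then PAM3, 62.6% and 65.7% in 25HC, and 67.2% and 67.6% in untreated. The same shares near gene ends were 88.5% and 86.9% in PAM3, 87.5% and 88.3% in 25HC then PAM3, 88.9% and 90.4% in 25HC, and 90.0% and 91.0% in untreated. In 8 of 8 libraries the share was lower inside genes than at gene ends, and this difference was not tested.

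**Figure D1:**
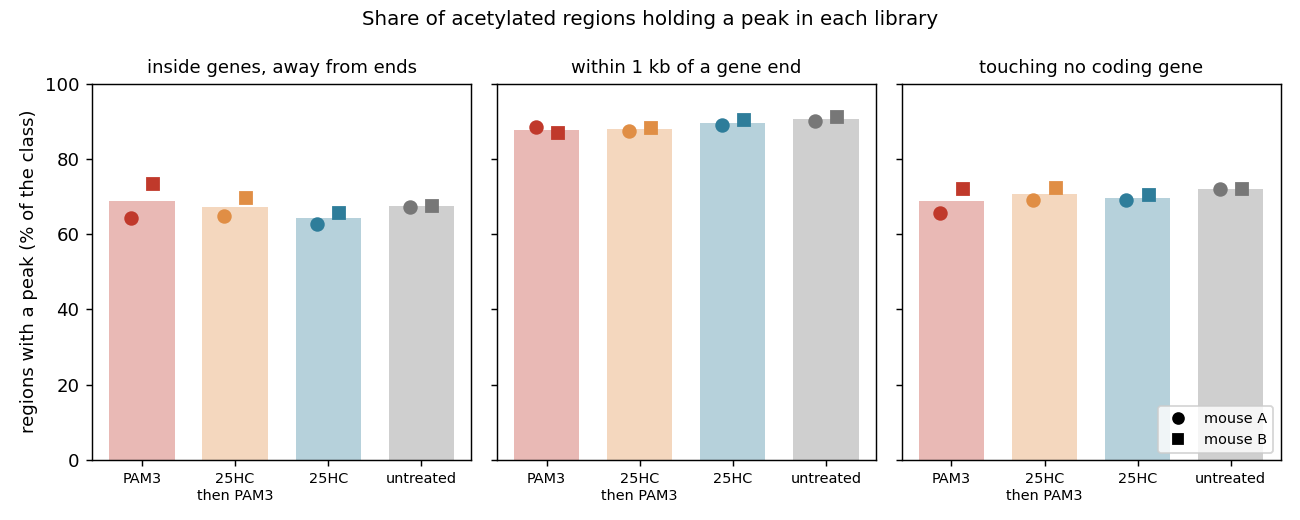
Share of regions with a peak (percent, vertical axis) in each of the 8 libraries, grouped by PAM3, 25HC then PAM3, 25HC and untreated, for intragenic regions away from gene ends, regions near gene ends and intergenic regions. The intragenic points lie between 62.6% and 73.4%, and the points near gene ends between 86.9% and 91.0%.

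The peaks were also shorter. The median called length, the length that a library's peaks cover inside a region, averaged 1098 bp over the 8 libraries, against 1514 bp near gene ends. The difference was -416 ± 23.2 bp (SD, n = 8 libraries) and lay between -434 and -370 bp. It was negative in 8 of 8 libraries (two-sided exact sign-flip permutation test, p = 0.00781, the smallest these 8 libraries can give). The rule puts any region that crosses or reaches within 1 kb of a gene end into the other class, which favours longer regions there. All 8 libraries also share the same union regions. The direction was thus partly set by the rule, and the test cannot separate that part. Regions present in all 8 libraries had a median called length of 1524 bp where present, and those of 2 libraries 567 bp. Of the 1074 regions that held an internal start of the host gene, 69.6% were present in all 8 libraries. That is nearer to the share near gene ends than to that of the intragenic regions as a whole.

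The edges of the rule divide a continuous set. The 222 members nearest to the limit of the rule, up to 1200 bp from a gene end, had peaks of 5.68 libraries on average and a median called length of 890 bp where present. The 389 regions just outside the rule, 1000 bp away or slightly less, had peaks of 5.72 libraries and 926 bp. Another 12336 intragenic regions held a peak of 1 library only and were outside the rule, with a median length of 424 bp.

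At the level of whole libraries, the exposure to PAM3 made no difference that passed an exact test. The number of regions with a peak was 20206 ± 1284 in the libraries with PAM3 and 19543 ± 679 in those without (SD, n = 4 each; two-sided exact permutation test, p = 0.429). Their mean called length was 1261 ± 89.1 bp with PAM3 and 1273 ± 54.5 bp without (exact permutation p = 0.829). Their share of all called bases was 39.9 ± 1.05% with PAM3 and 39.4 ± 0.662% without (exact permutation p = 0.543), and their number per region near a gene end was 1.74 ± 0.12 with PAM3 and 1.64 ± 0.0444 without (exact permutation p = 0.229). The smallest p that 4 against 4 can give is 0.0286. The directions of the number of regions, the mean length and the share turned in some of the other settings. PAM3 mouse A held the shortest peaks of all 8 libraries, with a mean of 1137 bp, while PAM3 mouse B held the most regions, 21821.

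The regions that carried a peak differed between libraries with and without PAM3. Regions present in both PAM3 and both 25HC then PAM3 libraries and in no other numbered 712 (2.40% of the members, against 2.14% of all regions). Those present in both 25HC and both untreated libraries and in no other numbered 583 (1.96%, against 2.08% of all regions). Groups of 2 libraries on their own gave 605 for PAM3 (2.04%, against 1.5% of all regions), 955 for 25HC then PAM3 (3.21%, against 2.96%), 121 for 25HC (0.407%, against 0.35%) and 393 for untreated (1.32%, against 1.2%). The rule admits a region from 2 libraries upwards, so 5206 members with peaks of only 2 libraries had to be absent from the other 6, and these counts are descriptions.

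Absence from a single group was rarer than presence in that group alone for PAM3, 25HC then PAM3 and untreated, and not for 25HC. Present in the other 6 libraries but absent from both of a group were 204 regions for PAM3 (0.686%, against 0.718% of all regions), 537 for 25HC then PAM3 (1.81%, against 1.58%), 127 for 25HC (0.427%, against 0.383%) and 103 for untreated (0.347%, against 0.33%). Disagreement between the mice of a group was common: 16601 members (55.9%, against 48.1% of all regions) were present in 1 mouse alone in at least 1 group, and 13115 (44.1%, against 51.9%) were present in both mice or neither in every group. Presence shared only by groups that differed in PAM3 was rare. Of groups alike in 25HC, both PAM3 and both untreated libraries alone held 74 regions (0.249%, against 0.181% of all regions). Both 25HC then PAM3 and both 25HC libraries alone held 48 (0.162%, against 0.127%). Of groups unlike in 25HC too, both PAM3 and both 25HC libraries alone held 18 (0.0606%, against 0.0539%). Both 25HC then PAM3 and both untreated libraries alone held 27 (0.0909%, against 0.0998%).

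Set against each other without regard to the remaining groups, 2370 members were in both PAM3 and neither untreated library (7.98%, against 6.31% of all regions), and 2086 the other way round (7.02%, against 6.92%). After 25HC, 3152 were in both 25HC then PAM3 and neither 25HC library (10.6%, against 9.22%), and 2184 the other way round (7.35%, against 6.81%). Of 25HC then PAM3 and PAM3, 1715 were in both 25HC then PAM3 and neither PAM3 library (5.77%, against 5.29%), and 1868 the other way round (6.29%, against 4.97%). Of 25HC and untreated, 542 were in both 25HC libraries alone (1.82%, against 1.53%) and 1094 in both untreated libraries alone (3.68%, against 3.06%). The pair that differed only in 25HC without a stimulus thus had the fewest such regions.

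**Figure D2:**
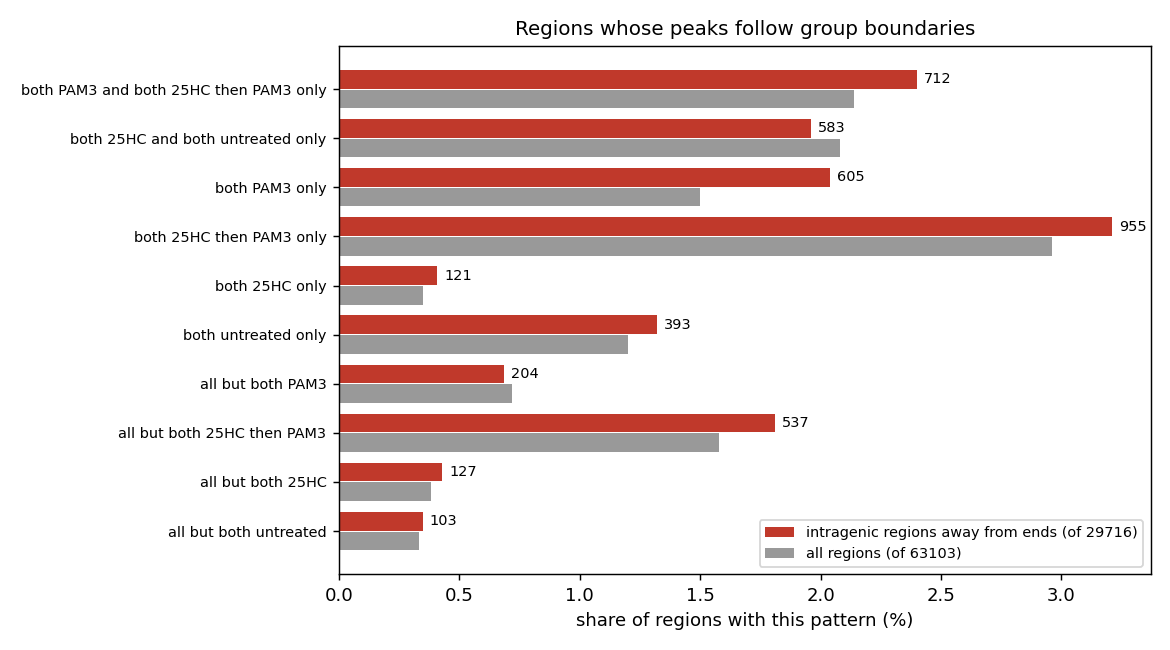
Share of regions (percent, horizontal axis) with each pattern of presence and absence in both libraries of a group, for intragenic regions and for all regions. Labels give the number of intragenic regions. The pattern with PAM3 and 25HC then PAM3 only holds 712 regions and that with 25HC and untreated only holds 583.

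Pairs of libraries shared more of these regions when they were alike in PAM3. Of the regions present in either library of a pair, 68.2% to 73.2% were present in both for the 4 pairs of the same group, 60.6% to 71.7% for the 8 pairs of other groups alike in PAM3, and 54.3% to 60.2% for the 16 pairs that differed in it. The last range did not overlap with the others, but the gap was narrow. PAM3 mouse A shared 60.7% and 60.6% with the 25HC then PAM3 libraries, and 59.4% to 60.2% with the libraries without PAM3. The pairs reuse the same libraries, and the difference was not tested.

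The called length was then compared region by region with limma on log2(called bp + 500 bp), less the median of the library, fitted over all 63103 regions with Benjamini-Hochberg adjustment over all of them and a threshold of 0.05. A difference on this scale is a log2 change of called length, not of signal height. Where a region was at 0 in both libraries of a group, the 500 bp set the size of the log2 change and the group showed no spread, so the adjusted p can be too small. Called lengths are then given in place of the log2 change, and an adjusted p only for a call that another fit ended or put near the threshold. The comparisons share libraries with each other, and regions of 1 gene are not independent.

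With PAM3, alone or after 25HC, 2950 members rose and 2199 fell against 25HC and untreated, which is 17.3% of the 29716 (background over all 63103 regions: 16.7%). In each direction the members' shares were 9.93% higher and 7.4% lower (background 9.24% and 7.46%). Among regions near gene ends 8.61% were called and among intergenic regions 21.1%, so the intragenic share lay near the background and between both. Members with peaks of only 2 libraries entered through those libraries and had to be absent from the others, so such rises and falls are descriptions. Among members with peaks of 3 or more libraries 2199 rose and 1919 fell. Over all members, with mouse as a block, 2254 rose and 1699 fell. Leaving out a library without PAM3 lowered the calls by over 1.5 times. Dropping the 25HC library of mouse A left 1595 rises and 1328 falls, and that of mouse B 1382 and 1206. For untreated the counts were 1492 and 1261 less mouse A, and 1595 and 1284 less mouse B. When peaks with a deposited −log10 q under 5 were dropped, limma called 0 of 22751 members (4468 at an unadjusted p under 0.05). That score followed the region only weakly. Over the 24111 regions present in all 8 libraries, Spearman's rho between libraries was 0.0587 to 0.194 for the −log10 q and 0.619 to 0.848 for the called length.

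**Figure D3:**
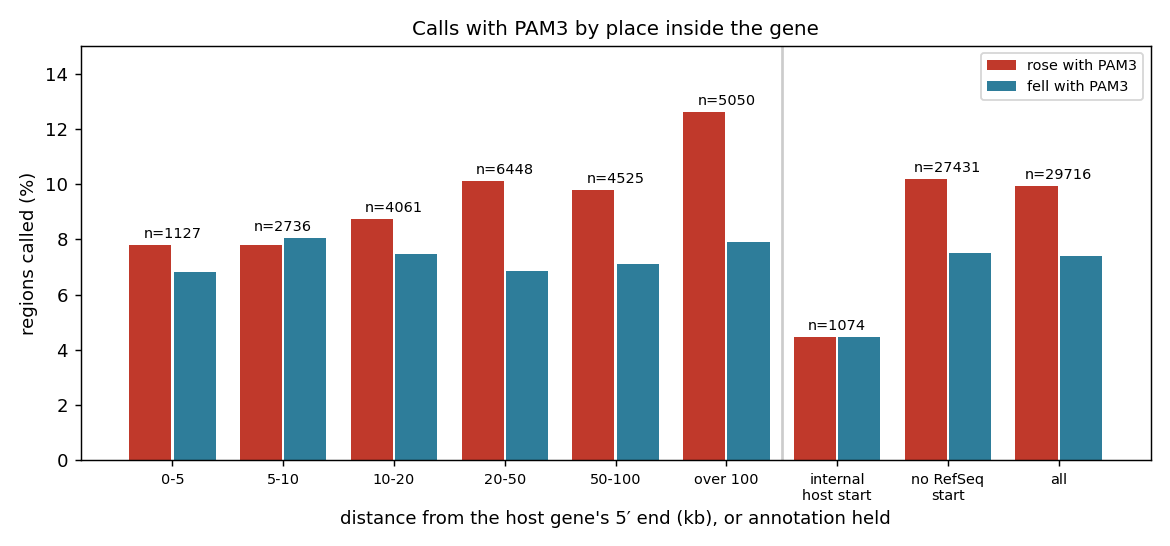
Percent of intragenic regions called as risen or fallen with PAM3 (25HC then PAM3 and PAM3 against 25HC and untreated, limma adjusted p under 0.05). Bars are given by distance in kb from the 5′ end of the host gene. Further bars show regions holding an internal host start, regions with no RefSeq start found and all members. Regions over 100 kb from the 5′ end show 12.6% risen and 7.9% fallen, and all members 9.93% and 7.4%.

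The share called differed with the distance from the 5′ end of the gene. Within 5 kb of the 5′ end, 7.81% of 1127 regions rose and 6.83% fell, and more than 100 kb from it 12.6% of 5050 rose and 7.9% fell. Of the distances between, 5 to 10 kb gave 7.79% risen, 10 to 20 kb 8.74%, 20 to 50 kb 10.1% and 50 to 100 kb 9.79%. Regions far from the 5′ end lie in long genes only, and the difference between distances was not tested. At internal starts of the host gene, 48 of 1074 regions rose and 48 fell (4.47% each), below the 9.93% and 7.4% of all members, and with mouse as a block 40 of these rises and 38 of these falls passed. The 27431 regions with no RefSeq start found inside gave 10.2% risen and 7.5% fallen. Host genes without a strand in the tables can lack their starts there too, so some of these regions may hold one.

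The GC box was found in 54.7% of the 1266 starts inside these regions, against 36.0% of all 31396 RefSeq starts given for these chromosomes. In the 57 starts inside regions that rose the share was 36.8%, and in the 57 inside regions that fell it was 38.6%. ETS letters were found in 28.7% of the starts inside the regions, 36.8% of those in regions that rose, 40.4% of those in regions that fell and 28.2% of all starts. C/EBP letters were found in 10.5%, 15.8%, 21.1% and 10.9% in the same order. These are shares of small sets without a test.

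Among the regions named by rule for the largest rises, 8 were near or at 0 in all libraries without PAM3. Cdk19, a kinase of the Mediator complex (chr10:40379092-40384573), was called over 3503 and 4267 bp in PAM3 and 4332 and 5041 bp in 25HC then PAM3, against 0 and 0 bp in 25HC and 0 and 433 bp in untreated. Arhgap18, a GTPase-activating protein (chr10:26893314-26898129), was called over 3077 and 3120 bp in PAM3 and 3450 and 3910 bp in 25HC then PAM3, and over 0 bp in all 4 libraries without PAM3. Regions in St7, Cd2ap (an adaptor between receptors and actin), Ahi1 (a protein of the primary cilium), Trps1 (a GATA-type repressor), Epha7 (an ephrin receptor) and Zeb1 (a zinc finger repressor) were likewise at 0 in all 4. In those 6 the libraries with PAM3 were called over 2199 to 4004 bp.

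Among the largest falls, Fnip2, a partner of folliculin (chr3:79537954-79541300), was at 0 bp in all 4 libraries with PAM3, against 2569 and 3286 bp in 25HC and 3309 and 3324 bp in untreated. Cbfa2t3, a corepressor of blood cells (chr8:122663292-122667221), was at 0 bp in all 4 as well, against 1514 and 2415 bp in 25HC and 2455 and 3785 bp in untreated. Slc7a13, an amino acid transporter, was called over 0 and 1624 bp in PAM3 and 0 and 0 bp in 25HC then PAM3, against 4327 and 3420 bp in 25HC and 4065 and 4328 bp in untreated. Only PAM3 mouse B kept a peak there. Fam110b, Fstl4, Hnrnpul1 (an RNA-binding protein), Zfp236 and Arpp21 complete the 8, with 2065 to 3411 bp in the libraries without PAM3 and at most 549 bp in those with it.

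The 5 longest members were long in every library. Fyb, the adaptor also called ADAP (chr15:6562169-6572488), was called over 8888 and 10200 bp in PAM3 and 10288 and 9104 bp in 25HC then PAM3, against 3967 and 4902 bp in 25HC and 5398 and 4775 bp in untreated. The log2 change was 0.96 ± 0.09 (SE; adjusted p = 0.00289), and its groups with and without PAM3 did not overlap. Slc16a10, an aromatic amino acid transporter, had 4995 and 6383 bp in PAM3 and 7884 and 7281 bp in 25HC then PAM3, against 4922 and 4481 bp in 25HC and 5684 and 5126 bp in untreated. Its log2 change was 0.36 ± 0.08 (adjusted p = 0.0304), and PAM3 mouse A fell within the range of the libraries without PAM3. It passed in 2 of the 8 fits that left out 1 library (adjusted p up to 0.0914, without untreated mouse B). The members in Aopep, Rab3il1 and Tmem267 did not pass (adjusted p = 0.052, 0.128 and 0.867).

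**Figure D4:**
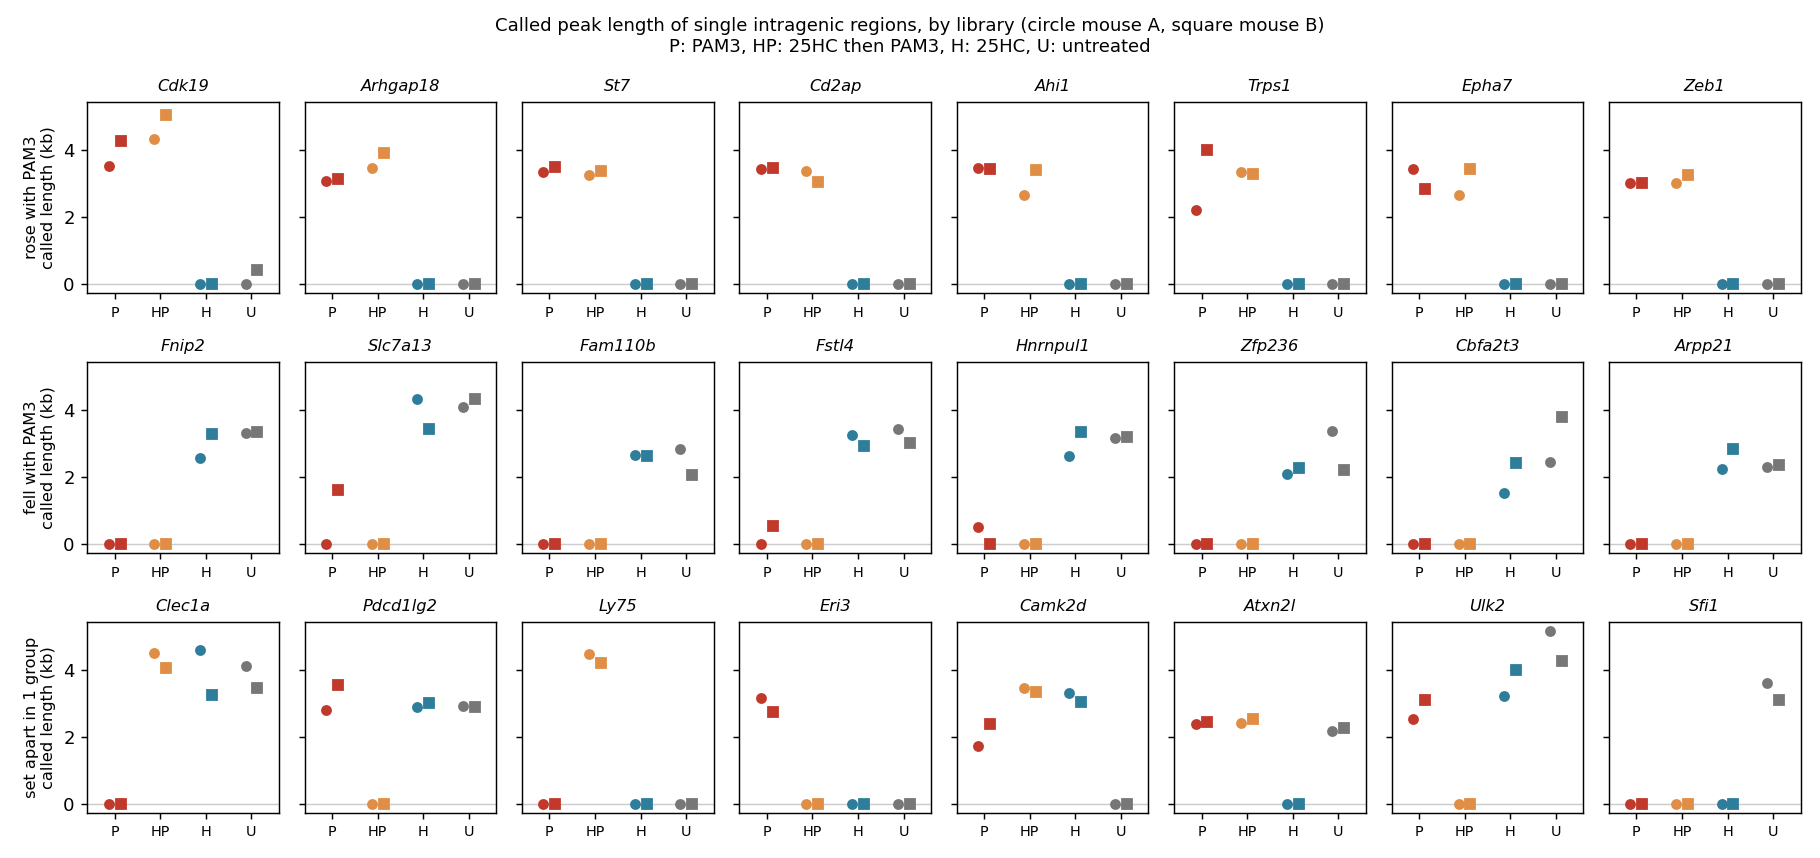
Called length (kb, vertical axis) of named intragenic regions in each library of PAM3, 25HC then PAM3, 25HC and untreated. At the Cdk19 region the libraries with PAM3 lie between 3503 and 5041 bp and those without between 0 and 433 bp.

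Genes of the NF-κB and inflammatory effector list held 105 members in 30 of 42 genes. Of these 20 rose and 5 fell, 23.8% called, with a median log2 change of 0.268, against 17.3% and 0.0167 over all members. Nfkb1 encodes p105, the precursor of the p50 subunit. It held 17 members in 107 kb, of which 3 rose and 1 fell. The region at chr3:135668868-135673183 was called over 1014 and 2361 bp in PAM3 and 4244 and 4200 bp in 25HC then PAM3, and over 0 bp in all libraries without PAM3. The region at chr3:135601920-135605192 did the opposite, with 0 and 288 bp in PAM3 and 0 and 226 bp in 25HC then PAM3, against 1802 and 3111 bp in 25HC and 2199 and 2144 bp in untreated. Birc3, an inhibitor of apoptosis downstream of TNF receptors, was called over 2252 and 2643 bp in PAM3 and 2294 and 1815 bp in 25HC then PAM3, against 0 and 0 bp in 25HC and 240 and 0 bp in untreated.

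Innate receptor genes held 89 members, of which 12 rose and 5 fell (19.1%, against 17.3% of all members). Adgre1, which encodes the macrophage surface protein F4/80, accounted for 7 of these rises among its 16 members and for no fall. Summed over its members, the called length was 13.6 and 15.6 kb in PAM3 and 9.21 and 9.49 kb in 25HC then PAM3, against 1.24 and 2.59 kb in 25HC and 0.564 and 1.27 kb in untreated. The PAM3 libraries were highest, and those of 25HC then PAM3 lay between them and the libraries without PAM3. None of the 16 was present in all 8 libraries. One of them, at chr17:57464826-57466436, was called over 1479 and 1611 bp in PAM3 and over 0 bp in all other libraries. That region entered the set through the PAM3 libraries alone and had to differ.

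Cytokine and chemokine receptor genes held 77 members, of which 9 rose and 11 fell (26.0%, against 17.3% of all members). Their median log2 change was -0.127. The 4 named by smallest p all fell. Il4ra, a chain of the IL-4 and IL-13 receptors (chr7:125573020-125576286), was called over 0 and 0 bp in PAM3 and 514 and 472 bp in 25HC then PAM3, against 2823 and 3109 bp in 25HC and 1797 and 1863 bp in untreated. Il1rl1, the IL-33 receptor ST2, was called over 0 and 0 bp in PAM3 and 312 and 322 bp in 25HC then PAM3, against 1621 and 2055 bp in 25HC and 1668 and 1932 bp in untreated. At both genes 25HC then PAM3 kept short peaks where PAM3 had none. Il1rap, the coreceptor of IL-1 and IL-33, was at 0 bp in all 4 libraries with PAM3, against 1390 and 822 bp in 25HC and 1194 and 909 bp in untreated. Tnfrsf1b, the receptor TNFR2, was called over 949 and 1290 bp in PAM3 and 1185 and 1161 bp in 25HC then PAM3, against 1280 and 1313 bp in 25HC and 3095 and 2986 bp in untreated (log2 change -0.61 ± 0.07, adjusted p = 0.00518). There the untreated libraries stood apart, and PAM3 mouse B lay just above 25HC mouse A.

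Among kinase and phosphatase signalling genes 53 of 490 members rose and 35 fell (18.0%, near the 17.3% of all members). Lyn, a Src family kinase (chr4:3709401-3714421), was called over 5013 and 4885 bp in PAM3 and 3813 and 3493 bp in 25HC then PAM3, against 505 and 903 bp in 25HC and 1133 and 1385 bp in untreated. This was a rise of 1.73 ± 0.14 on the log2 scale (adjusted p = 0.00228) with no overlap. Of the 4 members in Pik3cg, the catalytic subunit p110γ of phosphoinositide 3-kinase, 2 rose. The member at chr12:32193031-32195687 had 2625 and 2646 bp in PAM3 and 2475 and 1827 bp in 25HC then PAM3, and 0 bp in all libraries without PAM3. Abl2, a tyrosine kinase, fell, with 669 and 1011 bp in PAM3 and 0 and 0 bp in 25HC then PAM3, against 1974 and 2936 bp in 25HC and 3996 and 2957 bp in untreated.

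Macrophage transcription factor genes held 450 members, of which 48 rose and 26 fell (16.4%, near the 17.3% of all members). Runx1, a Runt factor of blood cells, had a member with 1049 and 1100 bp in PAM3 and 3287 and 2954 bp in 25HC then PAM3, and with 0 bp in all libraries without PAM3. Irf2, an interferon regulatory factor, had 1676 and 2349 bp in PAM3 and 1724 and 2057 bp in 25HC then PAM3, against 0 and 0 bp in 25HC and 1032 and 1102 bp in untreated. Members in Zeb2 and Tcf4 rose as well, each at 0 bp in all libraries without PAM3.

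Sterol genes are of interest because 25HC is a ligand of LXR and blocks the processing of SREBP. Their 168 members included 16 that rose and 12 that fell with PAM3 (16.7%, near the 17.3% of all members). In 25HC against untreated limma called 0 of the 168 (15 at an unadjusted p under 0.05). Mylip, the LXR target that degrades the LDL receptor, had 561 and 1326 bp in PAM3 and 1602 and 1644 bp in 25HC then PAM3. Abca3, a lipid transporter, had 1236 and 879 bp in PAM3 and 1846 and 1624 bp in 25HC then PAM3. Both were at 0 bp in 25HC and in untreated, as were the named members of Osbpl8, an oxysterol-binding protein relative, and Soat1, which esterifies cholesterol.

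Genes of the histone acetylation machinery held 207 members, of which 21 rose (10.1%, against 9.93% of all members) and 8 fell (3.86%, against 7.4%). Ncoa2, a coactivator of nuclear receptors, rose with 972 and 728 bp in PAM3 and 782 and 1441 bp in 25HC then PAM3, and 0 bp in all libraries without PAM3. Hdac7, a class II deacetylase, rose with 492 and 711 bp in PAM3 and 674 and 542 bp in 25HC then PAM3, and also had 0 bp in all libraries without PAM3. Hdac4, of the same class, held 6 of these falls and 1 rise among its 17 members. Its member at chr1:92011316-92012950 was at 0 bp in all libraries with PAM3, against 1424 and 1489 bp in 25HC and 1483 and 1628 bp in untreated. Glycolysis, lysosome and autophagy genes held 152 members, of which 26 rose and 9 fell (23.0%, against 17.3% of all members). In Wwox, an oxidoreductase with WW domains, the region at chr8:115306651-115312691 was called over 5888 and 6004 bp in PAM3 and 4909 and 4973 bp in 25HC then PAM3, against 892 and 1723 bp in 25HC and 986 and 947 bp in untreated (log2 change 1.89 ± 0.14, adjusted p = 0.00217). Another region of the same gene, at chr8:114635948-114637721, was at 0 bp in all libraries with PAM3, against 1520 and 1722 bp in 25HC and 1707 and 1330 bp in untreated.

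Markers of other cells moved in both directions. The shares called below stand beside 17.3% of all members. Of 16 members in 6 neutrophil genes 1 rose and 3 fell (25.0%), with 11.5 to 16.2 kb summed in libraries with PAM3 and 12.2 to 15.7 kb in those without. The rise was in Itgam, which macrophages also express. It kept the call with mouse as a block (adjusted p = 0.0364), as did the fall in Ltf (adjusted p = 0.044). The 2 falls in Padi4 lost the call with the block (adjusted p = 0.0581 and 0.0603). Of 7 members in 6 lymphocyte genes limma called 0 (1 at an unadjusted p under 0.05), with 2.87 to 4.76 kb with PAM3 and 3.82 to 6.31 kb without, and a Cd4 member had an adjusted p of 0.132. Of 28 members in dendritic cell genes 3 rose and 5 fell (28.6%), with 15.1 to 26.9 kb with PAM3 and 18.5 to 27.4 kb without. The named rise was in Ly75, called in the 25HC then PAM3 libraries alone, and the named members of Ciita, Siglech and Flt3 fell to 0 bp in all libraries with PAM3. Of 33 fibroblast and endothelial members 2 rose and 3 fell (15.2%), with 22.2 to 24.1 kb with PAM3 and 23.3 to 31.1 kb without. The rise in Pdgfrb lost the call with mouse as a block (adjusted p = 0.0527). The rise in Cdh5 and the falls named in Flt1 and Pdgfra kept it (adjusted p = 0.0325, 0.0266 and 0.0487). Neuronal genes, listed as silent in macrophages, held 26 members. Of these 8 rose (30.8%, against 9.93% of all members) and 3 fell (11.5%, against 7.4%). Together 42.3% were called, the largest share of any gene list, that of NF-κB and inflammatory effectors included. Their summed length was 16.7 to 31.9 kb with PAM3 and 19.3 to 22.9 kb without. The part of other cell types in the results was not tested.

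Some genes held many called members. A rise was found in 1883 host genes and a fall in 1580, and 428 held both, which is 22.7% of those with a rise and 27.1% of those with a fall. The following genes were chosen after their values were seen. In Lpp 26 of 75 members rose and none fell. Its called length was 103 and 132 kb in PAM3 and 121 and 133 kb in 25HC then PAM3, against 57.7 and 63.6 kb in 25HC and 65.9 and 59.9 kb in untreated, and the groups with and without PAM3 did not overlap. In Creb5 13 of 39 members rose, in St7 12 of 21, in Fmn1 11 of 22 and in Slx4ip 9 of 19, with no fall in any. Creb5 is a relative of the ATF2 factors and Fmn1 nucleates actin. In the other direction, 11 of 32 members fell and 1 rose in Vps13d (a lipid transfer protein), 10 of 39 fell and 1 rose in Rad51b, 8 of 36 fell and 2 rose in Aopep, and 6 of 7 fell in Slco2b1.

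**Figure D5:**
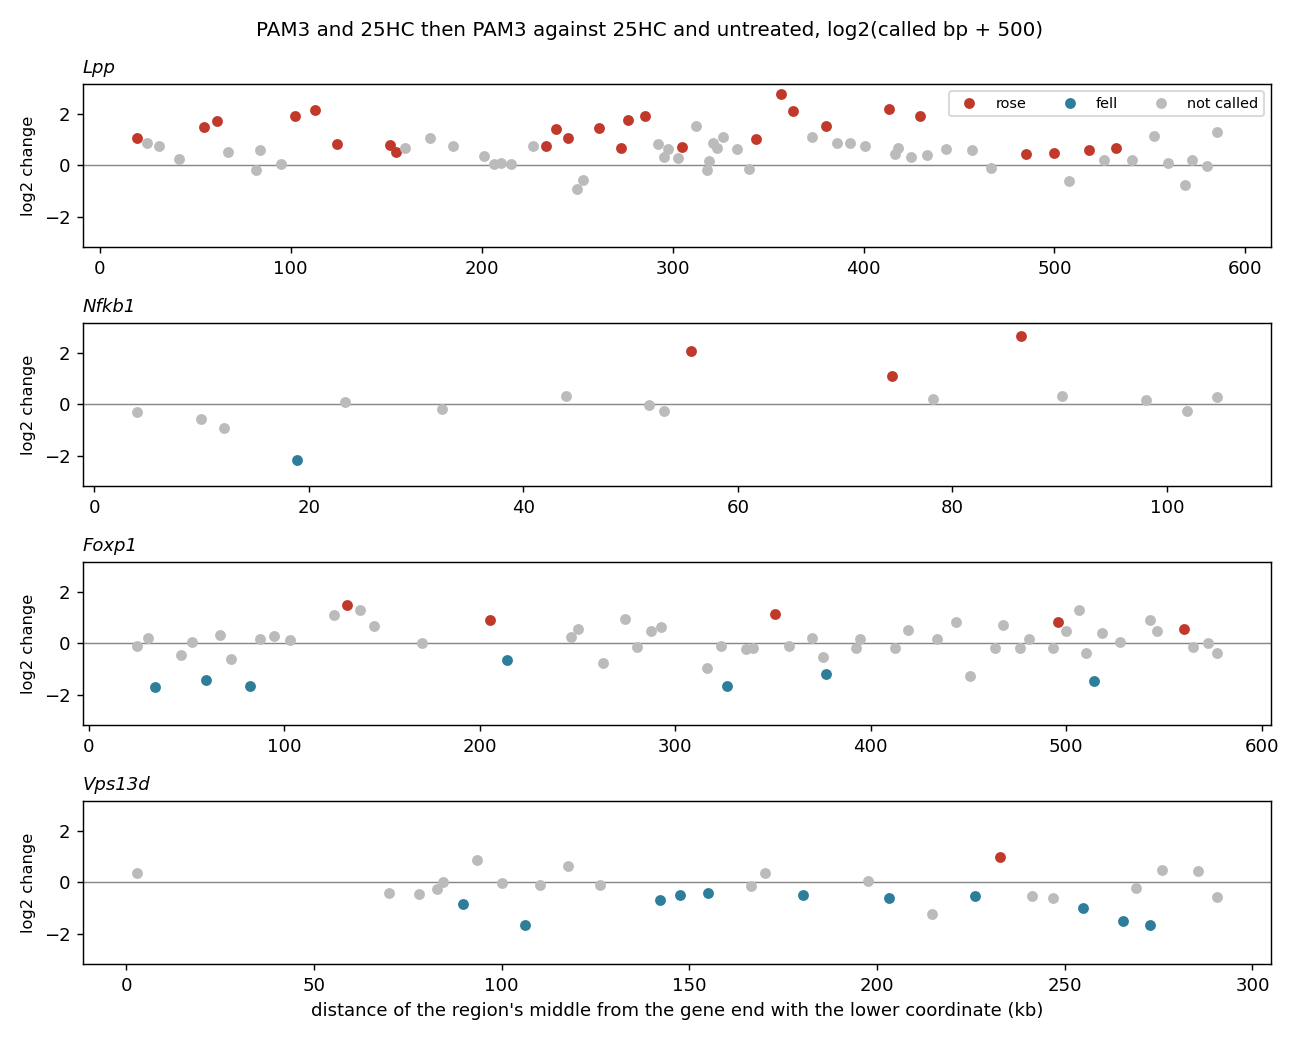
Log2 change of called length with PAM3 (vertical axis) for each member along Lpp, Nfkb1, Foxp1 and Vps13d, by distance in kb from the end of the gene with the lower coordinate. Lpp holds 26 risen members and no fallen one, Foxp1 holds 5 risen and 7 fallen, Nfkb1 3 and 1, and Vps13d 1 and 11.

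A microRNA hairpin overlapped 49 members, of which 5 rose (10.2%, against 9.93% of all members), 7 fell (14.3%, against 7.4%) and 37 were not called. With mouse as a block 4 of the rises and 6 of the falls passed, and the falling member in Ubn2 did not (adjusted p = 0.0578). The mature sequences of 6 of them follow, because microRNAs are cut from the transcript of the gene or of a start nearby. Capitals mark the seed, bases 2 to 8, and no 2 of these share a seed.

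mmu-miR-330-3p: gCAAAGCAcagggccugcagaga
mmu-miR-3095-3p: uGGACACUggagagagagcuuuu
mmu-miR-7011-5p: aGGAGGAUgggagagggaggugu
mmu-miR-1960: cCAGUGCUguuagaagagggcu
mmu-miR-511-3p: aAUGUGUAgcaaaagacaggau
mmu-miR-33-5p: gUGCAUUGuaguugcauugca

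The member around Mir330, in Eml2, was called over 2529 and 2630 bp in PAM3 and 3650 and 3653 bp in 25HC then PAM3, against 1290 and 1464 bp in 25HC and 1430 and 1142 bp in untreated. Its log2 change was 0.98 ± 0.08 (SE; adjusted p = 0.00249), with no overlap. The member around Mir3095, in the lysophosphatidic acid receptor gene Lpar1, had 2227 and 2495 bp in PAM3 and 1707 and 1506 bp in 25HC then PAM3, against 646 and 476 bp in 25HC and 458 and 1240 bp in untreated. Its rise of 1.08 ± 0.22 (adjusted p = 0.0265) lost the call with mouse as a block (adjusted p = 0.0523). The member around Mir7011, in the semaphorin gene Sema4a, had 1074 and 1251 bp in PAM3 and 1156 and 1316 bp in 25HC then PAM3, against 1629 and 1787 bp in 25HC and 3516 and 3558 bp in untreated. It fell by 0.8 on the log2 scale (SE 0.07, adjusted p = 0.00234), and the 25HC libraries lay between the others. The member around Mir1960, in Hadhb (a mitochondrial enzyme of fatty acid oxidation), had 1451 and 1498 bp in PAM3 and 0 and 0 bp in 25HC then PAM3, against 1691 and 2609 bp in 25HC and 2946 and 2337 bp in untreated, and fell.

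The members around 2 hairpins known from macrophages and from cholesterol handling were chosen after their values were seen, and neither was called. The member around Mir511, in the mannose receptor gene Mrc1, had 1566 and 2839 bp in PAM3 and 1798 and 0 bp in 25HC then PAM3, against 3099 and 3313 bp in 25HC and 2608 and 2105 bp in untreated. Its log2 change was -0.94 ± 0.49 (adjusted p = 0.255). The member around Mir33, in the SREBP2 gene Srebf2, had 678 and 845 bp in PAM3 and 334 and 375 bp in 25HC then PAM3, against 504 and 1809 bp in 25HC and 1437 and 1445 bp in untreated (log2 change -0.72 ± 0.26, adjusted p = 0.124).

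PAM3 without 25HC was compared with untreated. Here 1388 members rose and 920 fell (7.77%; background 7.26%, with 4.12% risen and 3.15% fallen). Among members with peaks of 3 or more libraries the counts were 914 and 717. Over all members, with mouse as a block, 832 rose and 523 fell. Without untreated A 175 rose and 34 fell, and without untreated B 414 and 157. Srgap2, a GTPase-activating protein that bends membranes, rose with 2776 and 4624 bp in PAM3, against 0 and 0 bp in untreated. Clec1a, a C-type lectin receptor (chr6:129432057-129437579), fell to 0 and 0 bp in PAM3, against 4119 and 3461 bp in untreated. It was called over 4485 and 4035 bp in 25HC then PAM3 and 4570 and 3254 bp in 25HC, so PAM3 alone was without it. Atp1b3, a subunit of the sodium pump, fell to 0 and 0 bp in PAM3, against 3710 and 2422 bp in untreated. Srgap2 and Atp1b3 each passed in 5 of the 8 fits that left out 1 library (adjusted p up to 0.0639 and 0.0831, both without untreated mouse A).

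After 25HC, PAM3 gave 1895 rises and 1426 falls against 25HC (11.2%; background 10.9%, with 6.2% risen and 4.66% fallen). Among members with peaks of 3 or more libraries the counts were 1291 and 1190. Over all members, the fit with the block gave 1392 rises and 988 falls. Leaving out the 25HC library of mouse A left 557 rises and 363 falls, and that of mouse B 209 and 114. Rel, the NF-κB subunit c-Rel (chr11:23752070-23758771), was called over 2441 and 5478 bp in 25HC then PAM3, against 0 and 0 bp in 25HC. It had 1134 and 1930 bp in PAM3 and 243 and 0 bp in untreated, and did not pass without 25HC mouse B (adjusted p = 0.0567). Ulk2, a kinase of autophagy (chr11:61791470-61796647), was at 0 and 0 bp in 25HC then PAM3, against 3217 and 3997 bp in 25HC, and had 2532 and 3102 bp in PAM3 and 5156 and 4252 bp in untreated. Hpgd, which inactivates prostaglandins, was at 0 and 0 bp in 25HC then PAM3, against 3913 and 2691 bp in 25HC. Ncam2, an adhesion molecule, and Vps13c, a lipid transfer protein, were likewise at 0 bp only in 25HC then PAM3.

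The direct comparison of 25HC then PAM3 with PAM3 called 843 rises and 913 falls (5.91%; background 5.37%, with 2.87% risen and 2.51% fallen), and 465 and 496 with mouse as a block. Members with peaks of only 2 libraries, such as those in Ly75, Rai14 and Eri3 below, entered through the group where they have a peak and had to differ. Among regions with peaks of 3 or more libraries 175 rose and 297 fell. Leaving out a library of 25HC or of untreated gave 355 to 396 rises and 441 to 473 falls, although those groups do not enter the difference. Ly75, the endocytic receptor DEC-205 (chr2:60366613-60371085), was called over 4473 and 4197 bp in 25HC then PAM3 and over 0 bp in the 6 other libraries. Rai14 had 2801 and 3068 bp in 25HC then PAM3 and 0 bp in the 6 other libraries. Gpr137b, a lysosomal membrane protein, had 3459 and 3455 bp in 25HC then PAM3, against 0 and 0 bp in PAM3, and had 2104 and 3386 bp in 25HC and 1788 and 2299 bp in untreated. Rabgap1l rose with 2956 and 2997 bp in 25HC then PAM3, against 0 and 0 bp in PAM3, and lost the call with the block (adjusted p = 0.0692).

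Pdcd1lg2, the PD-1 ligand PD-L2 (chr19:29417447-29421002), was at 0 and 0 bp in 25HC then PAM3, against 2797 and 3554 bp in PAM3. It had 2873 and 2991 bp in 25HC and 2929 and 2886 bp in untreated, so 25HC then PAM3 was the only group without it. Eri3, an exoribonuclease, was at 0 and 0 bp in 25HC then PAM3, against 3151 and 2751 bp in PAM3, and was at 0 bp in 25HC and untreated too. Cblb, a ubiquitin ligase that restrains receptor signalling, was at 0 and 0 bp in 25HC then PAM3, against 3237 and 3317 bp in PAM3, 1592 and 1839 bp in 25HC and 1794 and 923 bp in untreated.

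25HC against untreated called 5 rises and 4 falls (0.0303%; background 0.0412%, with 0.0254% risen and 0.0158% fallen), with 2091 members at an unadjusted p under 0.05. Camk2d, a calcium-dependent kinase (chr3:126829283-126832788), was called over 3298 and 3027 bp in 25HC, against 0 and 0 bp in untreated, and kept the call with mouse as a block (adjusted p = 0.0455). It passed in 5 of the 8 fits that left out 1 library (adjusted p up to 0.0701, without PAM3 mouse B). It had 1743 and 2372 bp in PAM3 and 3443 and 3321 bp in 25HC then PAM3, so untreated was the only group without it. Myo1e, Gramd1a (which carries cholesterol from the plasma membrane to the endoplasmic reticulum) and Zfp790 were likewise at 0 bp in untreated only, with 1438 to 2888 bp in 25HC. Zfp618 had 3089 and 2670 bp in 25HC, against 870 and 756 bp in untreated.

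The falls were in Sfi1, Atxn2l, Elf2 and Ttc41. At Elf2, an ETS factor whose internal start is printed above, the region was at 0 and 0 bp in 25HC, against 2008 and 2185 bp in untreated, and had 1792 to 1878 bp in the libraries with PAM3. Atxn2l, a stress granule protein, was at 0 and 0 bp in 25HC, against 2187 and 2262 bp in untreated. Sfi1, a centrosomal protein, was at 0 and 0 bp in 25HC, against 3585 and 3092 bp in untreated, and at 0 bp in the libraries with PAM3. The Sfi1 region entered the set through the untreated libraries alone and had to differ. The 8 genes other than Camk2d lost the call with the block (adjusted p = 0.103 to 0.213).

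Last, the response to PAM3 after 25HC was set against the response without it. The fit called 2 members higher and 20 lower for 25HC then PAM3 less 25HC minus PAM3 less untreated (background over all regions 0.0872%, with 0.0143% higher and 0.0729% lower), with 4356 at an unadjusted p under 0.05. With mouse as a block limma called 0 (4185 at an unadjusted p under 0.05). Dennd1b, an exchange factor for Rab35, had 0 and 0 bp in 25HC then PAM3 against 1195 and 1567 bp in 25HC, while it had 1448 and 2157 bp in PAM3 against 0 and 0 bp in untreated. Both responses were complete and opposite there (adjusted p = 0.152 with the block).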

How the data were processed

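Acetyl-H4 ChIP-seq was made from macrophages of 2 mice (A and B) in 4 groups, with a rabbit polyclonal antibody and the KAPA Hyper Prep kit, per the labels' protocols. GSNAP, MACS2 2.1.0 and GRCm38/mm10 are named, per the submitters' processing notes. The deposited broad peak lists, 1 per library, give positions, a fold enrichment and −log10 p and q values per peak. These scores are the authors' own and were used only for filters and for the correlations and shares in the closing section. Peaks on X and Y (1139 to 1371 per library) were left out. Called bp per union region were computed with Python 3.11.15 and pandas 2.3.3, and differences fitted with limma 3.58.1 in R 4.3.3 (4 residual degrees of freedom, 3 with mouse as a block). Genes, starts and strand came from RefSeq (GRCm38.p6). Internal starts on chromosome 18 were left out when the sequences to print were chosen, and the counts of starts had no such filter. No genome was used, so exons and introns are not given.

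Regions were named by host gene: the 8 largest rises and falls for libraries with PAM3 against those without and the 5 largest for each other comparison, among those passing with the same sign in both mice, up to 4 members per gene list by smallest p, the 5 longest members and the 5 genes with most members. Predicted genes were skipped, and a few lymphocyte genes are not reported here. The members, lists and rules were chosen with earlier results of these data known. The same mice give libraries in every group by the labels, so mouse pairs them. Deviations of same-mouse libraries from their group means correlated at -0.009705 to 0.01093. The fits were tested on simulated data. With 2 libraries per group the number of libraries limits the precision, and the depth is unknown. Alternatives in the closing section changed 1 choice at a time, and those on peak length were added after the data were seen.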

Additional observations from a re-analysis of the deposited data

Results flagged for a closer look

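The difference between the responses to PAM3 with and without 25HC was tested itself, and 22 members passed (limma, adjusted p under 0.05). With mouse as a block limma called 0 (4185 at an unadjusted p under 0.05). The 7 that the naming rule gave are listed with the log2 difference, 25HC then PAM3 less 25HC minus PAM3 less untreated. At Clec1a it was 3.09: the region was called over 4485 and 4035 bp in 25HC then PAM3 against 4570 and 3254 bp in 25HC, but over 0 and 0 bp in PAM3 against 4119 and 3461 bp in untreated. At Atxn2l it was 2.34, with the region absent from both 25HC libraries only. At Dennd1b it was -4.22, the values of which are given in the report.

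At Myo1e, an unconventional myosin, it was -3.34, with the region at 0 bp in untreated only. At Gramd1a it was -3.05, again with the region at 0 bp in untreated only. At Dtnb, dystrobrevin beta, it was -3.14: the region had 0 and 0 bp in 25HC then PAM3 against 1843 and 2687 bp in 25HC, but 2437 and 3068 bp in PAM3 against 1758 and 1650 bp in untreated. At Pdcd1lg2 it was -3.01, with the region absent from both 25HC then PAM3 libraries only. In all 7 the adjusted p with mouse as a block was 0.114 to 0.152. These regions have a group with no peak in either library, where the 500 bp added on the log2 scale sets the size and no spread can be measured.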

How the results depend on the processing

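When peaks with a −log10 q under 5 were dropped, limma called 0 members in each of the 6 comparisons (at an unadjusted p under 0.05: 4468 for libraries with PAM3 against those without, 2932, 2171, 1495, 1777 and 1108), and log2 values turned sign at Hnrnpul1 (0.04), Vps13c (0.31, 25HC then PAM3 against PAM3), Clec1a (-0.33), Atxn2l (-0.29), Dtnb (1.89), Tnfrsf1b (0.36), Padi4 (0.1), Cd4 (0.41), 2 other lymphocyte marker members (0.32 and 0.25), Pdgfrb (-0.07), Fyb (-1.46), Rab3il1 (0.37) and Tmem267 (-0.2). Then 6965 fewer members were tested. Whether each score belongs to the coordinates on its line was not tested, and the scores correlated weakly between libraries, so these values say little of the regions. The number of members with a peak then differed by -1305 and their share of called bases by -0.338 percentage points. With peaks of 3 or more libraries these were -57.2 and -0.55, and the mean length difference 1.81 bp. It was 10.8 bp with the same number of the longest peaks in each library.

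25HC against untreated called 17 members with the same number of peaks in each library, 139 with a pseudocount of 100 bp, 187 with no median subtraction (library medians of log2 lay between 10.23 and 10.5) and 1 with mouse as replicate block. The difference of the PAM3 responses called 378, 1063, 1089 and 0 under these, 41 with peaks of 3 or more libraries, 0 with a pseudocount of 2000 bp, and, in settings chosen after seeing the data, 793 with peaks of at least 500 bp and 38 with the longest peaks. 25HC then PAM3 against PAM3 called 472 with 3 or more libraries and 961 with the replicate block, and PAM3 against untreated 1355 with the block, or 1339 rises and 1319 falls with no median subtraction. The cause of these changes was not tested. Among the regions named by rule, the block ended no other calls than those given beside their results. It also ended 18 of the 96 calls at internal starts.

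Leaving out each library in turn gave 2588 to 5659 calls for libraries with PAM3 against those without, 209 to 2860 for PAM3 against untreated, 323 to 4126 for 25HC then PAM3 against 25HC, 0 to 99 for 25HC against untreated, 796 to 2096 for 25HC then PAM3 against PAM3 and 0 to 773 for the difference of responses. A group left with 1 library is assumed to vary like the others. The mean length difference ran from -37.2 to 29.5 bp (10.7 bp without untreated A), the share from -0.0449 to 0.759 percentage points and the log2 change of Tmem267 from -0.05 to 0.13 (-0.04 without PAM3 A).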

Other observations

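The deposited scores per peak did not follow the regions as the lengths did. Over the 24111 regions present in all 8 libraries, Spearman's rho between libraries was 0.0587 to 0.194 for the −log10 q and 0.0484 to 0.224 for the fold enrichment in 28 pairs, and 0.093 to 0.194 for the −log10 q in the 4 pairs of the same group. For the called length it was 0.619 to 0.848. Over the first 50 such regions of each chromosome (950 in all), rho for the −log10 q was 0.235 to 0.563, and over the other 23161 it was 0.0504 to 0.178. Within a library the fold and the −log10 q went together (rho 0.793 to 0.834), while the length and the −log10 q hardly did (0.0593 to 0.0785). These correlations run across regions, which share libraries and chromosomes, and no cause was tested.

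The share of peaks with a −log10 q of 5 or more was 51.0% and 58.0% in PAM3 and 52.8% and 55.9% in 25HC then PAM3, against 58.3% and 62.7% in 25HC and 66.7% and 62.0% in untreated. All 4 libraries with PAM3 lay below those without, and this difference was not tested.

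Some members were missing from a single library only. These numbered 508 and 572 in PAM3, 680 and 622 in 25HC then PAM3, 381 and 341 in 25HC, and 420 and 325 in untreated. Libraries with PAM3 each missed more regions alone than those without.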
